A study of Sus scrofa with 6 samples.

Results

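The genes of the cell cycle, of DNA replication and of DNA repair were compared between IPEC-J2 and IPEC-1. They were chosen by their symbols alone, namely the cyclins (CCN), cyclin-dependent kinases and their inhibitors (CDK), the CDC, MCM, ORC, CENP, KIF, RFC, POLA, POLD, POLE, LIG, RAD, XRCC and MSH families, the E2F, CHEK, AURK, PLK and BUB genes and TOP2A. CDKN1A and the CDC42 symbols were left out. This gave 92 of the 6765 genes that had a value. The stems also take in some genes with other work, such as kinesins of organelle transport, kinases of transcription and proteins named after a partner, and these are described apart.

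IPEC-J2 and IPEC-1 are spontaneously immortalised cell lines of the intestinal epithelium, derived from newborn pigs (Sus scrofa). The study compared their gene expression with 6 Affymetrix Porcine Genome Arrays, 3 of untreated IPEC-J2 and 3 of untreated IPEC-1, with 1 culture per array. Both lines were grown at 39 °C with 5% fetal calf serum, insulin-transferrin-selenium and 5 ng/mL epidermal growth factor, on membranes with 1 µm pores at passages 78 to 98. The sample labels give 7 days of culture on the membrane and the methods give 10 days. The labels also give both lines the same cell bank number, where the methods give each its own, and the arrays are grouped here by the line named in their labels. Each cell line is a single line, so the comparison is between these lines and not between regions of the intestine, and every p-value here reflects the spread between these few cultures alone.

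A dividing cell copies its DNA once in S phase and separates the copies in mitosis, and cyclins that appear in turn switch on the cyclin-dependent kinases that drive each step. Origins of replication are licensed by the ORC and MCM proteins in G1 phase, polymerases alpha, delta and epsilon copy the strands with the clamp loader RFC and the ligases, and checkpoint kinases hold the cycle when DNA is damaged. Many transcripts of mitosis and S phase are made only in cycling cells, so that epithelial cultures lose them as they become confluent and stop dividing, and transcripts of general repair factors depend less on the cycle.

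All values are log2 signals, and values of a cell line are listed in the order of replicates 1, 2 and 3. The lowest signal of every array was exactly 4.00, called the floor, and signals at the floor carry no order. The floor held between 40.5 and 48.3% of the probe sets per array, most on IPEC-J2 replicate 1, which also had the lowest 75th percentile (8.31, against 8.51 to 8.56 on the other 5 arrays). A probe set that left the floor on 1 array of its line alone reached up to 7.78 in IPEC-J2 and 7.85 in IPEC-1 (the 95th percentile of such signals). Below these levels a signal is hard to tell from background. Of the 92 genes, 40 had both means below them and 5 more stood at the floor on every array. Of the 5513 genes that left the floor on at least 1 array, 2240 had both means below the levels. A mean over several probe sets can lie below them although the brightest does not, as in CDKN1B (9.78 in IPEC-J2 and 10.78 in IPEC-1). Labels of IPEC-J2 replicate 3 and IPEC-1 replicate 1 share a culture note, here called note A, and those of IPEC-J2 replicate 1 and IPEC-1 replicate 2 share another, note B. What the notes stand for is not given, and differences within each note are printed beside the main ones. EPCAM, a surface protein of epithelial cells, had signals of 13.52, 13.53 and 13.60 in IPEC-J2 and 13.34, 13.46 and 13.37 in IPEC-1, and KRT8 was between 12.31 and 12.69 on all arrays. Of the 15 epithelial markers tested, 5 were higher in IPEC-J2 (VIL1, LGALS4, HNF4A, CLDN3 and CLDN7) and KRT19 was lower. In either direction this was 40%, against 25.8% of all genes tested. ELF3, OCLN, KRT18 and ESRP1 were lower and EPCAM was higher on every IPEC-J2 array without passing. The differences of the 15 were positive in 7 and negative in 8. The enterocyte genes FABP1 and FABP2 were at the floor on every array. VIL1, a protein of the brush border, had 13.83, 14.04 and 13.81 in IPEC-J2 and 8.45, 4.00 and 8.53 in IPEC-1. Of 12 mesenchymal markers, 4 were at the floor on every array, THY1 and S100A4 were higher in IPEC-J2 (8.77 to 9.82, against the floor in IPEC-1) and COL5A1 was lower. COL5A1 was near the floor, with at most 4.85 in IPEC-1. VIM had 10.95, 11.63 and 11.85 in IPEC-J2 and 13.06, 12.17 and 13.35 in IPEC-1. TAGLN had 7.26, 7.10 and 4.00 in IPEC-J2 and 10.14, 9.81 and 8.08 in IPEC-1. Both were lower on every IPEC-J2 array without passing (limma adjusted p = 0.0523 and 0.0796). Of 7 leukocyte markers 4, PTPRC among them, and of 8 endothelial markers 7, CDH5 and VWF among them, were at the floor on every array. CD3E and PECAM1 were lower in IPEC-J2, with at most 6.13 in IPEC-1, below the levels named above. The part of these markers in the differences described here was not tested.

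Of the 92 genes, 87 left the floor on at least 1 array and were tested by limma together with all 5513 such genes, with adjusted p-values over all of them. With a threshold of 0.05 for the adjusted p, IPEC-J2 had 8 of the 87 at a higher and 12 at a lower level. Of all genes tested, 12.0% were higher and 13.8% were lower, and 25.8% passed in either direction, against 22.99% of the 87. The share of cell cycle genes that differed was thus near that of all genes. The median log2 difference, IPEC-J2 minus IPEC-1, was -0.15 for the 87 genes and -0.05 for all genes tested. It was -0.18 within note A and -0.12 within note B for the 87, against 0.00 and -0.14 for all genes tested. The 3 arrays of one line lay entirely above or below those of the other in 14 genes that were higher and 23 that were lower in IPEC-J2, while among all genes tested this held for 19.8% and 27.6%. In either direction it was 37 of the 87 genes (42.53%), against 47.5% of all genes tested. RNA came from whole cultures, so fewer cells in a phase of the cycle and less RNA per cell cannot be told apart.

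**Figure D1:**
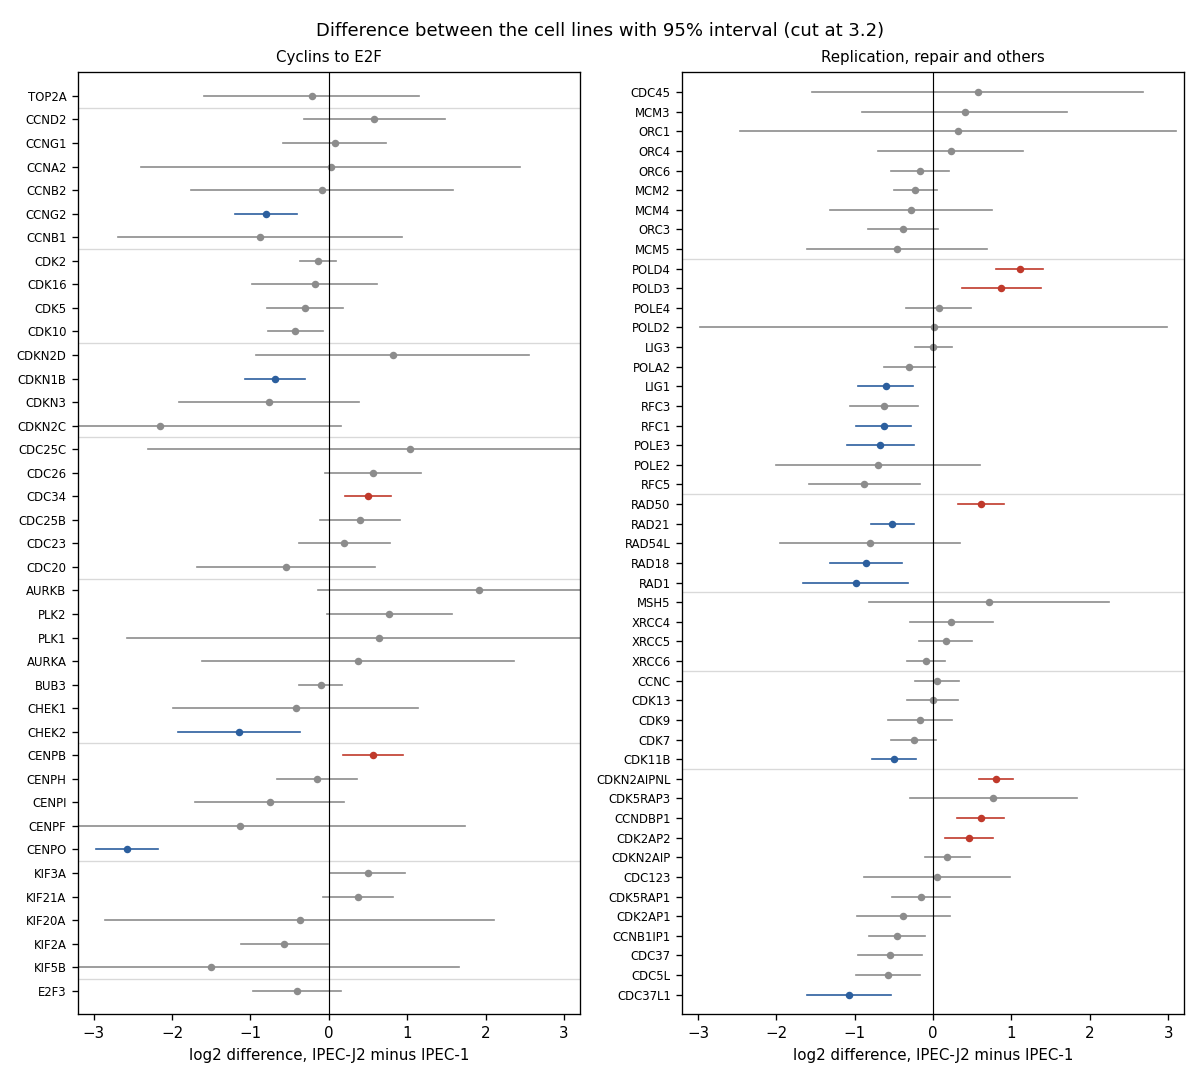
Log2 difference, IPEC-J2 minus IPEC-1, of 86 of the 87 tested genes, grouped by role, with the 95% interval of the limma fit (bars running past 3.2 are cut). Red points are the 8 genes higher and blue points the 12 genes lower in IPEC-J2, and grey points did not pass. Mitotic and licensing genes such as CCNB1 and ORC1 have wide bars, and POLD4 and RAD21 have narrow ones.

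CCNB1 and TOP2A, which mark cycling cells, varied more between the IPEC-1 cultures than between the lines. CCNB1, the cyclin that starts mitosis with CDK1, had signals of 8.32, 9.35 and 8.98 in IPEC-J2 and 11.13, 8.40 and 9.75 in IPEC-1. TOP2A, the topoisomerase that untangles chromosomes before they part, had 8.40, 8.86 and 8.95 in IPEC-J2 and 9.83, 7.77 and 9.26 in IPEC-1. In both genes the IPEC-1 arrays lay on either side of the IPEC-J2 arrays or nearly so, with replicate 1 at the top and replicate 2 at the bottom. The log2 difference of CCNB1 was -0.88 (95% interval -2.69 to 0.93, limma adjusted p = 0.427), and that of TOP2A was -0.22 (95% interval -1.59 to 1.16, limma adjusted p = 0.793). Neither passed, and the intervals leave room for a difference of more than 2-fold in either direction for TOP2A and downwards for CCNB1.

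CDC20, CCNB2, CCNA2, CDKN3 and AURKA had the same order of IPEC-1 arrays. CDC20, which activates the anaphase-promoting complex, had 8.08, 8.50 and 8.13 in IPEC-J2 and 9.64, 7.88 and 8.84 in IPEC-1, and CCNB2, the second B-type cyclin, had 6.56, 7.66 and 7.42 in IPEC-J2 and 8.36, 5.97 and 7.56 in IPEC-1. CCNA2, the cyclin of S and G2 phase, had 5.45, 6.34 and 6.35 in IPEC-J2 and 7.74, 4.00 and 6.32 in IPEC-1, so that IPEC-1 replicate 2 stood at the floor. Their log2 differences were -0.55, -0.08 and 0.03 (limma adjusted p = 0.428, 0.945 and 0.990). CDKN3, a phosphatase that acts on cyclin-dependent kinases, had 6.84, 7.74 and 7.21 in IPEC-J2 and 8.89, 7.30 and 7.90 in IPEC-1. AURKA, the kinase of the spindle poles, had 6.38, 7.45 and 7.15 in IPEC-J2 and 7.97, 4.99 and 6.92 in IPEC-1, the mean of a pair of probe sets of which the brighter one was at the floor on IPEC-1 replicate 2. In each of these genes the IPEC-J2 arrays fell within the range of the IPEC-1 arrays or overlapped it, and IPEC-J2 replicate 1 was the lowest of its line.

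**Figure D2:**
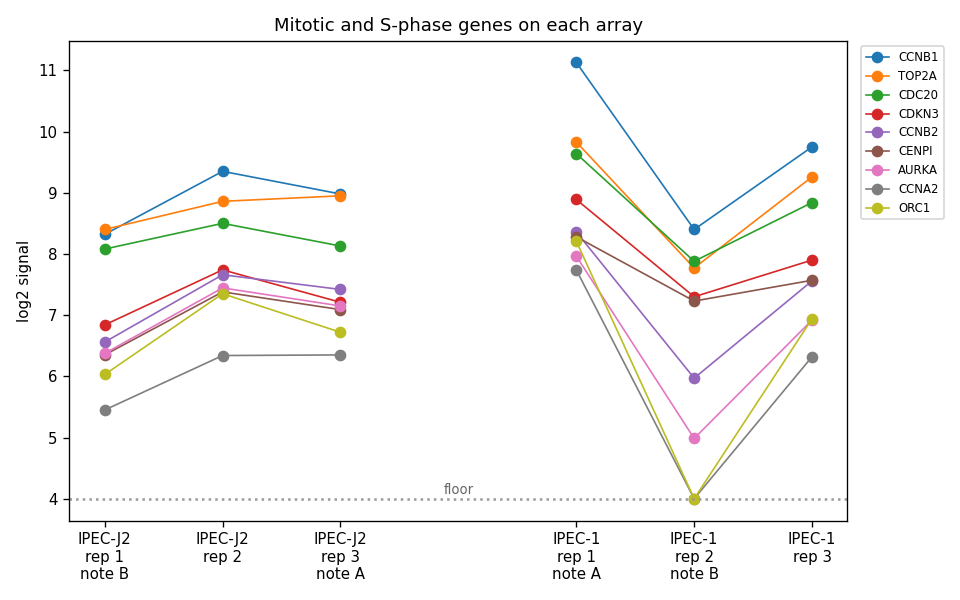
Log2 signal of 9 mitotic and S-phase genes on each array, with IPEC-J2 on the left, IPEC-1 on the right and the floor at 4.00 as a dotted line. All 9 are highest on IPEC-1 replicate 1 and lowest within IPEC-1 on replicate 2, and all are lowest within IPEC-J2 on replicate 1. The 9 do not stand for all such genes. PLK1, BUB3, MCM2 and CCND2 are not drawn and lack this order, which held within IPEC-1 in 31 of the 87 genes.

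Within IPEC-1 the gap between replicates 1 and 2 was 2.73 for CCNB1, or 6.63-fold, 2.06 for TOP2A, or 4.17-fold, and 1.76 for CDC20, or 3.39-fold. For CCNA2 (3.74) and for ORC1, the large subunit of the origin recognition complex (4.21), the lower array was at the floor, so no fold is given. IPEC-1 replicate 1 was the highest and replicate 2 the lowest array of that line in 31 of the 87 genes (35.63%), against 16.63% of all genes tested. IPEC-J2 replicate 1 was the lowest of its line in 63 of the 87 (72.41%), against 60.93% of all. All of these conditions held in 27 genes (31.03%), against 13.53% of all. The signal spanned more than 1 log2 unit within IPEC-1 in 26 genes (29.89%, against 14.93% of all) and within IPEC-J2 in 22 genes (25.29%, against 17.14% of all). The median SD of a gene was 0.271 in IPEC-J2 and 0.235 in IPEC-1 for the 87 genes, against 0.176 and 0.166 for all genes tested.

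Both low arrays carry note B, and the differences between the lines in these genes were not alike in the notes. These genes share the order of IPEC-1 arrays described above. A high replicate 1 in itself lowers the difference within note A, and a low replicate 2 raises that within note B. CCNB1 differed by -2.15 within note A and by -0.08 within note B, TOP2A by -0.88 and 0.63, CDC20 by -1.51 and 0.20, CCNA2 by -1.39 and 1.45 and CCNB2 by -0.94 and 0.59. Of the 87 genes, 15 had opposite signs in the notes (17.24%, against 17.65% of all genes tested), 62 had the same sign and 10 had a difference of 0 in a note. The 75th percentile of IPEC-1 replicate 2 was 8.51, next to 8.52 on both other IPEC-1 arrays, while that of IPEC-J2 replicate 1 was 8.31 against 8.56 and 8.51, so the second array was also dimmer as a whole. Of the 87 genes, 42 were lowest on the note B array in both lines (48.28%, against 26.72% of all genes tested), and of the 15 epithelial markers tested it was 4 (26.67%). One of them was the adhesion protein CDH1, with 8.32, 9.78 and 9.71 in IPEC-J2 and 9.91, 8.24 and 9.98 in IPEC-1. The summed log2 signal of the 15 epithelial markers was 155.4, 160.3 and 157.3 in IPEC-J2 and 145.3, 137.6 and 146.8 in IPEC-1. On IPEC-1 replicate 2, VIL1 and TJP1 were at the floor, against 8.53 and 5.73 on replicate 3. The median deviation of the 15 markers from the line mean was -0.01 on that replicate 2 array, so the low sum was not a drop of most markers. The part of the notes, of brightness and of these markers in the order of the arrays was not tested.

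**Figure D3:**
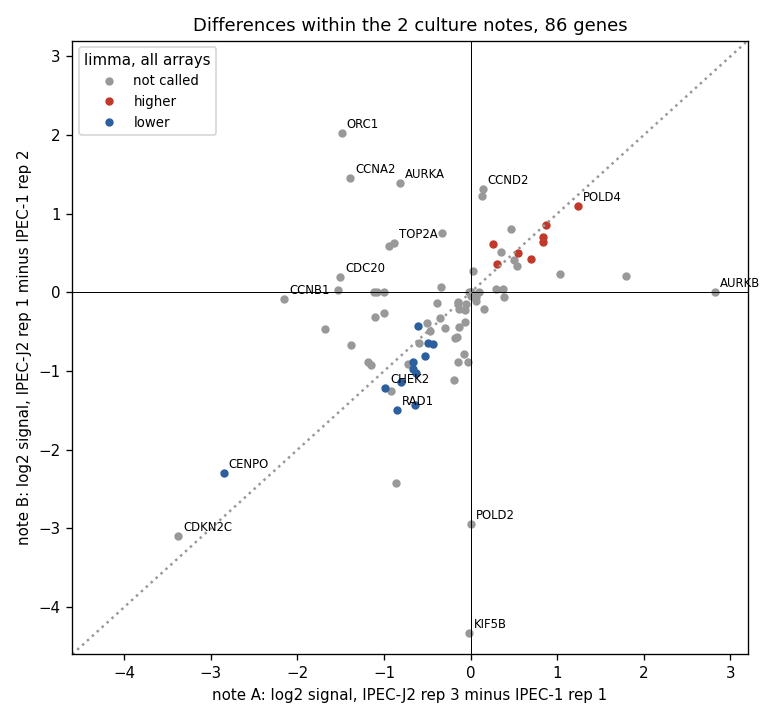
Log2 difference, IPEC-J2 minus IPEC-1, of 86 of the 87 tested genes within culture note A (horizontal axis) and within note B (vertical axis), each from 1 array per line, with equal values on the dotted line. The 8 higher (red) and 12 lower (blue) genes have the same sign in both notes, as they must, since their arrays do not overlap. Of these, POLD3 (0.87 in note A and 0.85 in note B) lies near the dotted line. CDC37L1 (-0.645 and -1.435) and RAD1 (-0.85 and -1.49) lie further from it. ORC1, CCNA2 and AURKA lie at the upper left with a negative difference in note A and a positive one in note B.

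Of the 6 cyclins of the cell cycle tested, 1 passed, and of 4 inhibitors of cyclin-dependent kinases 1 passed. These shares were 16.67% and 25%, against 25.8% of all genes tested. CCNG2, an atypical cyclin made in cells that leave the cycle, had signals of 8.56, 8.94 and 9.08 in IPEC-J2 and 9.71, 9.58 and 9.71 in IPEC-1. All IPEC-J2 arrays were below all IPEC-1 arrays, and it was 1.75-fold lower in IPEC-J2 (-0.81 ± 0.16 SE on the log2 scale, limma adjusted p = 0.0180), by -0.63 within note A and -1.02 within note B. Its relative CCNG1, a target of p53, had 11.53, 11.94 and 12.04 in IPEC-J2 and 12.01, 11.26 and 12.02 in IPEC-1. CCND2, a D-type cyclin that carries growth signals into the cycle, had 12.01, 12.25 and 12.00 in IPEC-J2 and 11.86, 10.70 and 11.96 in IPEC-1. The IPEC-J2 arrays of CCND2 were above the IPEC-1 arrays, but the difference of 0.58 did not pass (95% interval -0.32 to 1.48, limma adjusted p = 0.290) and was 0.14 within note A and 1.31 within note B.

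CDKN1B, which encodes the inhibitor p27 of CDK2, was 1.61-fold lower in IPEC-J2 as the mean of 3 probe sets (-0.69 ± 0.15 SE on the log2 scale, limma adjusted p = 0.0269). Its averaged signals were 6.65, 6.81 and 6.78 in IPEC-J2 and 7.28, 7.30 and 7.73 in IPEC-1. The brightest probe set had 9.57, 9.82 and 9.96 in IPEC-J2 and 10.67, 10.93 and 10.74 in IPEC-1, a difference of -0.997, and the dimmer ones differed by -0.44 and -0.62. All 3 probe sets thus ran the same way, while the averaged means lay below the levels named above, with 1 of the probe sets at the floor on 5 arrays. CDKN2C, the inhibitor p18 of CDK4 and CDK6, stood at the floor in IPEC-J2 and had 7.38, 7.10 and 4.00 in IPEC-1 (limma adjusted p = 0.148). CDKN2D had a signal on 1 IPEC-J2 array alone and CDKN2B on none.

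CDK1, CDK4 and CDK6 had no value under these symbols and were not tested, nor were MKI67, CCND1, CCNE1, CCNE2, MCM6, MCM7 and E2F1. None of the kinases CDK2, CDK5, CDK10 and CDK16 passed, against 25.8% of all genes tested. CDK2, which drives entry into S phase, averaged 6.47 ± 0.06 in IPEC-J2 and 6.60 ± 0.08 in IPEC-1 (SD, n = 3 each), a difference of -0.14 (95% interval -0.37 to 0.09, limma adjusted p = 0.325). These are means of 3 probe sets below the levels for a clear signal, 1 probe set was at the floor on every array, which narrows the interval, and the others differed by -0.36 and -0.05. CDK5 and CDK10 differed by -0.31 and -0.43. CDK16 differed by -0.18 as the mean of 3 probe sets that disagreed. Its brightest one had 9.36, 9.60 and 9.37 in IPEC-J2 and 8.93, 9.08 and 8.86 in IPEC-1, a difference of 0.49 that passed with the brightest probe set of each gene (limma adjusted p = 0.0278), while the dimmer ones differed by -0.07 and -0.97, the last with IPEC-J2 replicate 1 at the floor. Of the CDC genes, CDC34, the ubiquitin-conjugating enzyme that works with the SCF ligase on cell cycle inhibitors, had 10.30, 10.41 and 10.25 in IPEC-J2 and 9.99, 9.68 and 9.78 in IPEC-1. Its arrays did not overlap and it was 1.42-fold higher in IPEC-J2 (0.50 ± 0.12 SE on the log2 scale, limma adjusted p = 0.0301). CDC25B, a phosphatase that activates cyclin-dependent kinases, had a difference of 0.40 with overlapping arrays (limma adjusted p = 0.207). CDC25C, its relative at mitotic entry, was at the floor on 1 IPEC-J2 array and 2 IPEC-1 arrays, and E2F3, a transcription factor of S-phase genes, differed by -0.40 (limma adjusted p = 0.242).

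Among the checkpoint and mitotic kinases, 1 of 7 tested passed (14.29%, against 25.8% of all genes tested). CHEK2, a kinase that halts the cycle after DNA breaks, had signals of 7.38, 8.16 and 8.17 in IPEC-J2 and 9.16, 8.60 and 9.39 in IPEC-1. The arrays did not overlap, and CHEK2 was 2.21-fold lower in IPEC-J2 (-1.15 ± 0.31 SE on the log2 scale, limma adjusted p = 0.0471), by -0.99 within note A and -1.22 within note B. CHEK1, the kinase of stalled forks, had 5.14, 7.26 and 5.62 in IPEC-J2 and 7.00, 5.81 and 6.48 in IPEC-1, with no order between the lines, and its pair of probe sets differed by -1.09 and 0.24. BUB3, part of the spindle checkpoint, had 10.73, 10.79 and 10.59 in IPEC-J2 and 10.72, 10.94 and 10.76 in IPEC-1, a difference of -0.10 (95% interval -0.38 to 0.17), and without the array order of CCNB1. AURKB, the kinase of the chromosomal passenger complex, had 4.00, 6.94 and 6.82 in IPEC-J2 and no signal above the floor in IPEC-1 (limma adjusted p = 0.148), and PLK1 was at the floor on 1 IPEC-J2 and 2 IPEC-1 arrays. PLK2, a relative of PLK1 that responds to stress, had 9.73, 10.20 and 9.78 in IPEC-J2 and 9.65, 8.51 and 9.23 in IPEC-1, without overlap but without passing (limma adjusted p = 0.138).

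Of the 5 centromere proteins tested, 1 was higher and 1 lower in IPEC-J2 (40% in either direction, against 25.8% of all genes tested). CENPO, a subunit of the inner kinetochore, stood at the floor throughout IPEC-J2 and had 6.85, 6.29 and 6.58 in IPEC-1 (-2.57 on the log2 scale, limma adjusted p = 0.000333). The IPEC-1 signals lie below the level of 7.85, so no fold is given. CENPB, which binds a short repeat of centromeric DNA, had 9.07, 8.83 and 8.76 in IPEC-J2 and 8.21, 8.57 and 8.20 in IPEC-1 and was 1.47-fold higher in IPEC-J2 (0.56 ± 0.15 SE on the log2 scale, limma adjusted p = 0.0482). CENPF, a kinetochore protein made in G2 phase, had 4.00, 7.66 and 7.59 in IPEC-J2 and 8.45, 6.42 and 7.80 in IPEC-1, with the order of arrays seen in CCNB1. None of the 5 kinesins tested passed, against 25.8% of all genes tested. KIF20A, a motor of cell separation, left the floor only on IPEC-J2 replicate 3 (5.84) and IPEC-1 replicate 1 (6.96), and KIF5B, a motor of organelle transport, stood at the floor on IPEC-J2 replicate 1 and between 8.30 and 8.59 on the other 5 arrays.

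None of the 9 genes of origin licensing and firing passed, against 25.8% of all genes tested. MCM3, a subunit of the replicative helicase, had 7.12, 8.06 and 7.88 in IPEC-J2 and 8.21, 6.36 and 7.27 in IPEC-1, and ORC1 had 6.03, 7.35 and 6.72 in IPEC-J2 and 8.21, 4.00 and 6.94 in IPEC-1. Within IPEC-1, both had their highest value on replicate 1 and their lowest on replicate 2, as had 6 of the 9 genes. The differences were 0.41 for MCM3 (95% interval -0.90 to 1.72) and 0.32 for ORC1 (95% interval -2.47 to 3.10), with adjusted p-values of 0.581 and 0.856 from limma. CDC45, which is loaded with the helicase when an origin fires, differed by 0.57 as the mean of a pair of probe sets, the brighter of which averaged 8.38 in IPEC-J2 and 8.38 in IPEC-1. ORC6, measured by 1 probe set, differed by -0.17 (95% interval -0.53 to 0.20), and ORC3 and ORC4 differed by -0.38 and 0.22. MCM2, MCM4 and MCM5 each had a probe set at the floor on every array, which shrinks the averaged differences of MCM2 (-0.23) and MCM4 (-0.28). The averaged difference of MCM5 (-0.46) came from a probe set that left the floor only on IPEC-1 replicate 1 (8.19). The MCM5 probe set with a signal on all arrays differed by 0.02. The brightest probe set of MCM2 differed by -0.63 and also did not pass (limma adjusted p = 0.0655).

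Of the 12 replicative polymerase subunits, clamp loader subunits and ligases tested, 2 were higher and 3 lower in IPEC-J2. In either direction this was 41.67%, against 25.8% of all genes tested. POLD4, the small subunit of DNA polymerase delta, had signals of 10.50, 10.65 and 10.69 in IPEC-J2 and 9.45, 9.40 and 9.68 in IPEC-1. All IPEC-J2 arrays were above all IPEC-1 arrays, and it was 2.15-fold higher in IPEC-J2 (1.103 ± 0.118 SE on the log2 scale, limma adjusted p = 0.00273), by 1.24 within note A and 1.1 within note B. POLD3, another accessory subunit of the same polymerase, had 7.83, 8.38 and 8.15 in IPEC-J2 and 7.28, 6.98 and 7.49 in IPEC-1 and was 1.83-fold higher (0.87 ± 0.20 SE on the log2 scale, limma adjusted p = 0.0289). Its pair of probe sets differed by 0.81 and 0.94 and the notes by 0.87 and 0.85. POLD2, the subunit that joins them to the catalytic one, left the floor only on IPEC-J2 replicate 2 and IPEC-1 replicate 2.

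POLE3, LIG1 and RFC1 were lower in IPEC-J2. POLE3, a histone-fold subunit of polymerase epsilon, had 8.91, 9.39 and 8.92 in IPEC-J2 and 9.59, 9.88 and 9.77 in IPEC-1 and was 1.60-fold lower in IPEC-J2 (-0.67 ± 0.17 SE on the log2 scale, limma adjusted p = 0.0401). Its partner POLE4 averaged 9.86 ± 0.10 in IPEC-J2 and 9.79 ± 0.28 in IPEC-1 (SD, n = 3 each) and differed by 0.07 (95% interval -0.34 to 0.48). Whether these partners differ from each other in this was not tested. LIG1, the ligase that joins Okazaki fragments, had 7.47, 7.67 and 7.52 in IPEC-J2 and 8.19, 8.36 and 7.93 in IPEC-1 and was 1.52-fold lower in IPEC-J2 (-0.61 ± 0.14 SE on the log2 scale, limma adjusted p = 0.0302). LIG3, a ligase of single-strand break repair and mitochondria, differed by 0.01 (95% interval -0.23 to 0.24) as the mean of 4 probe sets near the floor, 1 of them at it on every array.

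Of the clamp loader, which places PCNA on DNA, RFC1, RFC3 and RFC5 were measured. RFC1, the large subunit, had 6.94, 7.26 and 7.37 in IPEC-J2 and 7.90, 7.75 and 7.81 in IPEC-1 and was lower in IPEC-J2 by a log2 difference of -0.63 ± 0.14 SE (limma adjusted p = 0.0265), at means below the levels for a clear signal. RFC3 had 6.99, 7.58 and 7.31 in IPEC-J2 and 8.03, 7.90 and 7.82 in IPEC-1, and RFC5 had 7.99, 8.96 and 8.74 in IPEC-J2 and 9.66, 9.25 and 9.41 in IPEC-1. In all 3 subunits every IPEC-J2 array was below every IPEC-1 array. RFC3 and RFC5 differed by -0.62 and -0.88 and missed the threshold (limma adjusted p = 0.0513 and 0.0744). They passed with the culture note as a random block (limma adjusted p = 0.0259 and 0.0350) and not with the replicate block (limma adjusted p = 0.134 and 0.179), and of 18 alternative settings RFC3 passed in 9 and RFC5 in 3.

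**Figure D4:**
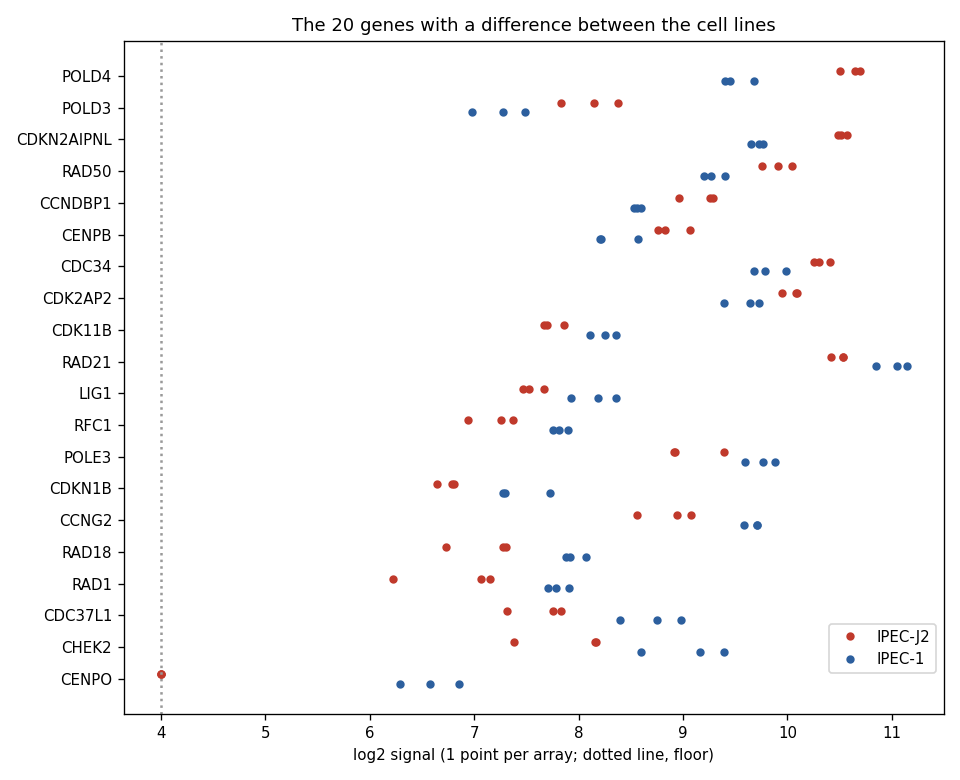
Log2 signal on each array of the 20 genes that differed, with IPEC-J2 in red just above IPEC-1 in blue and the floor at 4.00 as a dotted line. The arrays of the lines do not overlap in any of the 20 genes, and all 3 IPEC-J2 points of CENPO lie on the floor.

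Of the 6 RAD genes tested, RAD50 was higher and 3 others were lower in IPEC-J2 (66.67% in either direction, against 25.8% of all genes tested). RAD50, a part of the complex that holds broken DNA ends together, had 9.91, 9.76 and 10.04 in IPEC-J2 and 9.20, 9.27 and 9.40 in IPEC-1 and was 1.53-fold higher (0.61 ± 0.12 SE on the log2 scale, limma adjusted p = 0.0161), by 0.84 within note A and 0.64 within note B. RAD18, the ubiquitin ligase that marks PCNA at stalled forks, had 6.73, 7.30 and 7.28 in IPEC-J2 and 8.08, 7.88 and 7.92 in IPEC-1 and was 1.81-fold lower (-0.85 ± 0.18 SE on the log2 scale, limma adjusted p = 0.0244). RAD21, the cleavable subunit of the cohesin ring, had 10.42, 10.53 and 10.53 in IPEC-J2 and 11.14, 10.85 and 11.05 in IPEC-1 and was 1.43-fold lower (-0.52 ± 0.11 SE on the log2 scale, limma adjusted p = 0.0239). In these 3 genes the arrays of the lines were apart. RAD1, part of the clamp that calls the checkpoint, had 6.22, 7.15 and 7.06 in IPEC-J2 and 7.91, 7.71 and 7.78 in IPEC-1 and was also lower (-0.99 ± 0.27 SE on the log2 scale, limma adjusted p = 0.0477), with both means below the levels for a clear signal.

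None of the 4 genes of end joining and mismatch repair passed, against 25.8% of all genes tested. XRCC5 and XRCC6, which encode the subunits of the Ku ring on broken ends, differed by 0.16 (95% interval -0.18 to 0.50) and -0.09 (95% interval -0.34 to 0.15). XRCC6 had 8.56, 8.48 and 8.66 in IPEC-J2 and 8.61, 8.62 and 8.75 in IPEC-1, and its interval leaves out a difference of 1.5-fold in either direction. XRCC4, the partner of ligase 4, differed by 0.23 (limma adjusted p = 0.448), and MSH5, a mismatch repair relative of meiosis, left the floor on 1 IPEC-J2 array alone.

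The kinases and cyclins of transcription gave 1 difference among 5 tested (20%, against 25.8% of all genes tested). CDK11B, a kinase of transcription and splicing, had 7.70, 7.86 and 7.67 in IPEC-J2 and 8.11, 8.36 and 8.25 in IPEC-1 and was 1.41-fold lower (-0.50 ± 0.11 SE on the log2 scale, limma adjusted p = 0.0272). CDK7, CDK9, CDK13 and CCNC differed by between -0.25 and 0.05. Among 12 further genes that carry one of the stems, 3 were higher and 1 was lower (33.33% in either direction, against 25.8% of all genes tested). CDKN2AIPNL, a relative of a protein that binds the exonuclease XRN2, had 10.48, 10.51 and 10.57 in IPEC-J2 and 9.73, 9.77 and 9.65 in IPEC-1, with a spread in each line far below the gap, and was 1.75-fold higher (limma adjusted p = 0.00281). CCNDBP1, a binding partner of cyclin D1, was 1.52-fold higher and CDK2AP2, a binding partner of CDK2, 1.37-fold higher (limma adjusted p = 0.0185 and 0.0475). CDC37L1, a relative of the HSP90 cochaperone CDC37, had 7.32, 7.84 and 7.75 in IPEC-J2 and 8.40, 8.75 and 8.98 in IPEC-1 and was 2.11-fold lower (limma adjusted p = 0.0188). CDC37 itself differed by -0.55 without passing (limma adjusted p = 0.0627).

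All 20 genes that differed had the same sign within note A and within note B. This had to be so, since the arrays of the lines overlapped in none of the 20. POLD4 and CDKN2AIPNL passed in each of the 6 fits that leave out 1 array. So did CENPO, but with its IPEC-J2 signals fixed at the floor in every fit this says nothing of its stability. RAD50 and CCNG2 passed in 4 of these fits and CDC37L1 in 3. POLD3, CDK11B, RFC1, CDKN1B and RAD18 passed in 2, 8 genes passed in 1 and CDK2AP2 in 0, with adjusted p-values between 0.0553 and 0.118 from limma for the last. Leaving out replicate 1, 2 or 3 of IPEC-J2 gave 6, 3 and 2 higher genes and 6, 7 and 3 lower genes, and leaving out those of IPEC-1 gave 3, 4 and 4 higher and 5, 5 and 4 lower genes. With 3 arrays per line, the smallest p of a two-sided exact permutation test is 0.1. Folds of the 19 genes other than CENPO lay between 1.37 and 2.21. In POLD3, RAD18, LIG1, CDC37L1 and CDK11B the mean of the lower line was below the level for a clear signal, so that their folds hold only if that signal is not background.

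Genes of the same processes with other symbols were taken from lists written for this comparison, and 98 of them were tested. Of these, 7 were higher and 11 lower in IPEC-J2 (18.37% in either direction, against 25.8% of all genes tested), and their median log2 difference was 0.01. In the list of the replication fork and nucleotide supply, 2 of 21 were higher and 2 lower (19.05% in either direction). TYMS, which makes thymidylate, and RPA3, a subunit of the protein that coats single-stranded DNA, differed by 1.21 and 0.68 (limma adjusted p = 0.0173 and 0.0239). Both means of TYMS lay below the levels for a clear signal, and its brighter probe set differed by 2.41. GMNN, the inhibitor of relicensing, had 8.31, 8.64 and 8.44 in IPEC-J2 and 9.54, 8.98 and 9.23 in IPEC-1 and was 1.73-fold lower (limma adjusted p = 0.0278). GINS3 of the replicative helicase stood at the floor in IPEC-J2 and between 6.11 and 6.43 in IPEC-1. PCNA, the sliding clamp, had 10.19, 11.03 and 10.50 in IPEC-J2 and 9.81, 8.46 and 9.35 in IPEC-1. Its arrays did not overlap, and the difference of 1.37 (95% interval 0.35 to 2.38) missed the threshold (limma adjusted p = 0.0604), at 0.69 within note A and 1.73 within note B. RRM2, the cell cycle subunit of ribonucleotide reductase, had 7.73, 8.60 and 8.36 in IPEC-J2 and 9.38, 6.32 and 7.74 in IPEC-1, while RRM1, the other subunit, was between 10.66 and 10.81 on all arrays.

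The list of spindle, kinetochore and cytokinesis genes had the array order of CCNB1 most often of the 6 lists. IPEC-1 replicate 1 was the highest and replicate 2 the lowest of that line in 17 of its 23 tested genes (73.91%, against 16.63% of all). IPEC-J2 replicate 1 was also the lowest of its own in 16 of them (69.57% of the 23, against 13.53% of all). NDC80, the microtubule binder of the kinetochore, had 7.05, 7.79 and 7.57 in IPEC-J2 and 9.22, 6.82 and 8.23 in IPEC-1, and PTTG1, which encodes securin, had 7.79, 8.43 and 8.28 in IPEC-J2 and 10.01, 7.91 and 8.68 in IPEC-1. In 15 of the 23 the IPEC-1 arrays spanned more than 1 log2 unit (65.22%, against 14.93% of all). The median difference between the lines was -0.67 within note A and 0.00 within note B. The only gene of the list that passed was STMN1, which destabilises microtubules (4.35% of the 23, against 25.8% of all genes tested). It had 10.10, 10.50 and 10.28 in IPEC-J2 and 11.20, 11.37 and 11.40 in IPEC-1, without the order of arrays seen in NDC80, and was 2.04-fold lower in IPEC-J2 (limma adjusted p = 0.00566).

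**Figure D5:**
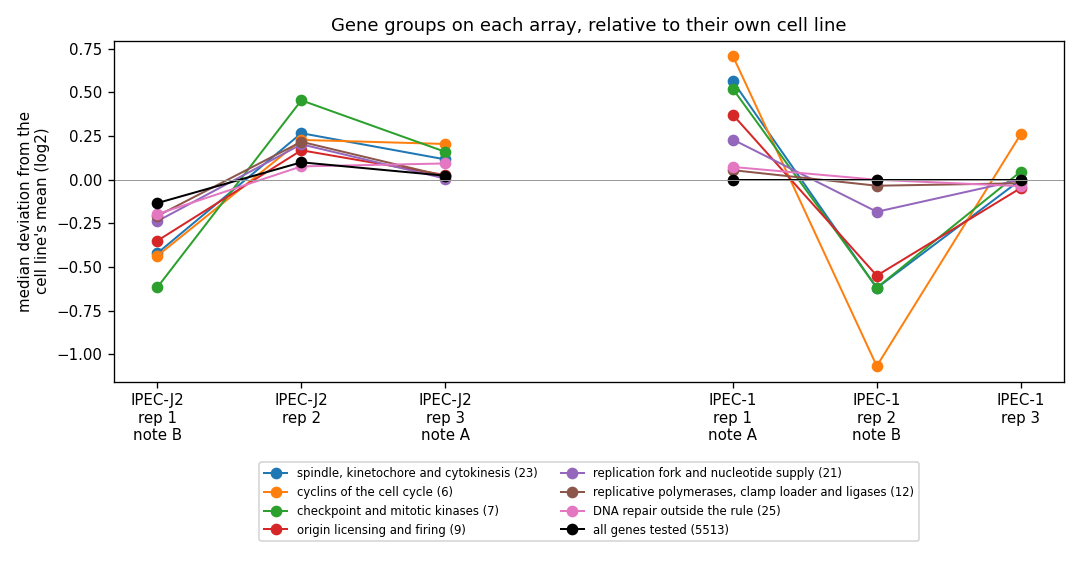
Median deviation of the genes of a group from their own line's mean on each array, in log2 units, with the number of genes in brackets, all genes tested in black and lines that only join the points of a group. On IPEC-1 replicates 1 and 2 the spindle list stands at 0.56 and -0.62 and the cyclins at 0.71 and -1.07, while DNA repair stands at 0.07 and 0.00 and all genes tested at 0.00 on both.

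In the smaller lists between 16.67 and 25% of the tested genes passed, against 25.8% of all. Of the anaphase-promoting complex, ANAPC13 and ANAPC4 were lower in IPEC-J2 among 8 tested (1.498-fold and 1.54-fold, limma adjusted p = 0.00660 and 0.0234), and of cohesin and condensin NIPBL, the cohesin loader, was lower among 6 (1.60-fold, limma adjusted p = 0.0185). In the list of RB, G1 and ubiquitin control, GADD45A, a stress gene that slows the cycle, was 1.93-fold higher among 15 tested, and LIN37, part of the repressive DREAM complex, and TFDP2, a partner of E2F factors, were 1.56-fold and 1.43-fold lower (limma adjusted p = 0.0295, 0.0357 and 0.0465). The IPEC-J2 means of ANAPC4, LIN37 and TFDP2 lay below the level for a clear signal, so their folds hold only if that signal is not background. WEE1, the kinase that restrains CDK1, had 8.57, 9.33 and 9.24 in IPEC-J2 and 10.34, 8.66 and 10.13 in IPEC-1 and did not pass.

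In the list of DNA repair, 4 of 25 tested genes were higher and 3 lower. This share of 28% was near the 25.8% of all genes tested. MGMT, which removes alkyl groups from guanine, had 11.77, 11.53 and 11.66 in IPEC-J2 and 8.89, 8.66 and 8.22 in IPEC-1. All IPEC-J2 arrays were far above all IPEC-1 arrays, and MGMT was 8.36-fold higher (3.06 on the log2 scale, limma adjusted p = 0.000367), by 2.77 within note A and 3.11 within note B. ATM, the kinase that senses DNA breaks upstream of CHEK2, had 8.77, 8.81 and 9.11 in IPEC-J2 and 8.09, 7.56 and 8.06 in IPEC-1 and was 1.99-fold higher (limma adjusted p = 0.0166), where CHEK2 was lower. The helicase RECQL and MPG, a glycosylase that removes alkylated bases, were 1.75-fold and 1.49-fold higher (limma adjusted p = 0.0403 and 0.0111), RECQL with an IPEC-1 mean below the level for a clear signal. APEX1, the endonuclease of base excision repair, had 10.51, 10.57 and 10.52 in IPEC-J2 and 11.10, 11.45 and 11.22 in IPEC-1 and was 1.65-fold lower, and ERCC8 and ERCC1 of nucleotide excision repair were 1.49-fold and 1.48-fold lower (limma adjusted p = 0.0107, 0.0112 and 0.0214). MRE11, which binds RAD50, had 7.92, 9.15 and 8.98 in IPEC-J2 and 8.53, 7.74 and 8.23 in IPEC-1 and did not pass (limma adjusted p = 0.383).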

How the data were processed

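RNA of 3 IPEC-J2 and 3 IPEC-1 cultures was hybridised to 1 Affymetrix Porcine Genome Array each (500 ng). The submitters' processing notes name GCOS 1.1.1 and PLIER for the log2 signals that the authors deposited. The methods name GCOS 1.3 with scaling of every array to a target of 500, then background correction and normalization, and do not say which step gave the deposited values or their log base. Values were read as log2, since their floor of 4.00 is the log2 of 16, and were not normalized further. Of 24123 probe sets, 124 controls were left out, and the 10069 with 1 symbol in the platform annotation were averaged per symbol to 6765 genes. The 92 genes came from 128 probe sets, and all matched the RefSeq gene table. Genes at the floor on every array (1252) were left out of the fit. limma 3.58.1 (R 4.3.3, lmFit and eBayes, no block) was run on the other 5513 with Benjamini-Hochberg adjustment, and was tested on simulated data first. The number of arrays limits the precision. Named were all genes that passed, a set list of regulators and up to 4 passing genes per pathway list and direction. PLK2, KIF5B, POLD2, CDK16, XRCC4, MSH5, PCNA, RRM2, NDC80, PTTG1, WEE1, MRE11 the marker genes and other genes that did not pass were named after their values were seen. The genes, lists, the levels of 7.78 and 7.85 and the tests were chosen with earlier results of these data known. Alternatives were other summaries, scalings, filters, tests and blocks, and leaving out each array. No sequences were used. A tested gene that did not pass is not reported here or drawn, but is counted among the 87.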

Additional observations from a re-analysis of the deposited data

How the results depend on the processing

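The 8 higher and 12 lower cell cycle genes became 5 higher when the fit kept the genes that never left the floor, and 5 higher and 7 lower with the methods' t-test after Benjamini-Hochberg adjustment. With 1 array left out there were 2 to 6 higher and 3 to 7 lower. The labels give no shared origin to arrays of equal number, and the paper names independent experiments without saying which arrays belong together. Deviations from the line means correlated by -0.065, -0.106 and 0.055 for arrays of equal number, and by 0.061 and 0.173 within notes A and B. With so few arrays and no known pair to compare with, these values cannot tell whether the numbers pair the arrays. The replicate block, which leaves fewer residual degrees of freedom, gave 2 higher and 2 lower. All other settings gave 6 to 11 higher and 8 to 17 lower. Of all genes tested, 662 were higher and 762 lower. These were 283 and 309 with the replicate block, 1154 lower with the methods' t-test unadjusted, 483 lower without the arrays of culture note B (a setting added after seeing the data), and 376 to 692 higher and 401 to 618 lower with 1 array left out.

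None of the 20 cell cycle genes that passed changed its sign under any setting run, while 21 of the 67 that had not passed did. The arrays of the lines did not overlap in the 20, so leaving out arrays could not change their sign. Of the 21, CDK16 had a difference of 0.49 with the brightest probe set, where it passed, and the values of 13 others follow. Without the arrays of note B the difference was -0.15 for AURKA, -0.69 for CCNA2 and -0.54 for ORC1. With the brightest probe set it was -0.0033 for CDC45, 0.24 for CHEK1 and 0.0233 for MCM5. It was -0.11 for CCNA2 with the offset of 16, 0.0344 for CCNB2 after quantile normalization and -0.0012 for LIG3 with the note as a block. With 1 array left out it ran between -0.45 and 1.04 for AURKA, -0.98 and 0.89 for CCNA2, -0.75 and 0.45 for CCNB2, -1.76 and 0.0683 for CENPF, -1.05 and 0.0092 for CHEK1, and -0.99 and 0.61 for KIF20A. It ran between -0.04 and 0.045 for LIG3, -0.0533 and 0.87 for MCM3, -0.73 and 0.0711 for MCM5, -0.88 and 1.23 for ORC1, -0.13 and 0.46 for ORC4, and -0.81 and 0.22 for TOP2A. The cause was not tested. Scaling on the 75th percentile or quantiles moved the median of all genes by less than 0.1.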
